A study of Mus musculus with 4 samples.

Results

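The 10 genes described here encode the proteins that decide whether a cell in G1 phase goes on to replicate its DNA. They are the D-type cyclins Ccnd1, Ccnd2 and Ccnd3, the kinases Cdk4 and Cdk6, the INK4 inhibitors Cdkn2a, Cdkn2c and Cdkn2d and the CIP/KIP inhibitors Cdkn1a and Cdkn1b. They were chosen by name for their function, with earlier results of these data known. Each matched 1 of the 27998 genes counted in both data sets. Classical monocytes (Ly6G-, CD11b+, CD115+, Ly6C-high) had been sorted from the bone marrow of wild-type C57BL/6 mice without treatment, 5 young and 5 old of each sex, and profiled by single-cell RNA sequencing (scRNAseq). Young mice were 14 weeks (males) or 15 weeks (females) old, and old mice were 27 months (males) or 26.5 months (females) old. Hashtag antibodies told the mice of a sex apart, but all of them shared a single library, so sex and library cannot be told apart.

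D-type cyclins are made in response to growth factors such as M-CSF and bind CDK4 or CDK6, and the active kinase phosphorylates the retinoblastoma protein so that E2F factors can switch on the genes of S phase. INK4 proteins bind CDK4 and CDK6 directly and keep the cyclin away, whereas CIP/KIP proteins act mainly on CDK2 complexes and also help D-type cyclins to assemble with their kinases. Ly6C-high monocytes arise in the marrow from dividing progenitors and stop dividing as they mature. Cdkn2a and Cdkn1a are in addition widely used as markers of cellular senescence, and Cdkn1a is a classical target of p53.

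Stretches of 250 bases upstream of a RefSeq transcription start were read for Cdkn2c, Cdkn2d and Cdk4, because these 3 members separated the cells with and without cycling transcripts without overlap in both sexes. How many of all genes did so was not counted. Of the genes tested, 75.2% in females and 50.6% in males were called as different between these cells. The sequences are from RefSeq on GRCm38.p6, and capitals mark the GC box (GGGCGG, or CCGCCC on the other strand), a motif bound by Sp1-type factors.
Cdkn2c (chr4:109666757-109667006, minus strand): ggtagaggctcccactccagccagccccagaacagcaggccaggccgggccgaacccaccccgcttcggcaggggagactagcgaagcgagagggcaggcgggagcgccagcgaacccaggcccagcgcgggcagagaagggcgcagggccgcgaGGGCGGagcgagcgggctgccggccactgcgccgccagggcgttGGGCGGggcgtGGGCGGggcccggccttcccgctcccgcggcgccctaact
Cdkn2d (chr9:21291210-21291459, minus strand): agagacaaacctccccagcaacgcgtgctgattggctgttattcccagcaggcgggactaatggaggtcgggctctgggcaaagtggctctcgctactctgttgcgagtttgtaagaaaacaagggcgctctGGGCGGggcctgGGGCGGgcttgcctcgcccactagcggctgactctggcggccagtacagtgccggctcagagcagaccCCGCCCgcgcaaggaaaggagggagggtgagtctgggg
Cdk4 (chr10:127063285-127063534, plus strand): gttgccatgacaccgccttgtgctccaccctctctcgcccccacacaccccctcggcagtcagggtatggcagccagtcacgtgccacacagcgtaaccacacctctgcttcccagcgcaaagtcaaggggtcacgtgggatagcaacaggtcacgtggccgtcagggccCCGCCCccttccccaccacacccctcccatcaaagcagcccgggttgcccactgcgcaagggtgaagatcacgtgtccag
Cdkn2c has 3 GC boxes in this window, Cdkn2d has 3 and Cdk4 has 1, while a further window listed for Cdkn2c has none. The motif occurred on either strand in 32.7% of all 32851 promoters of this length, and in 8 of the 12 windows listed for the members (7 of 8 members). A pair of E2F-type motifs, TTTGGCGC (0.417% of all promoters) and TTTCCCGC (0.895%), was searched on both strands. Only the second occurred among the members, in a window of Cdkn2a. The CHR motif TTTGAA, carried by 16.0% of all promoters, was in none of the 12 windows. The windows of Cdkn2c (77.2% G or C), Cdkn2d (63.6%) and Cdk4 (64.4%) were richer in G and C than the median promoter (52.4%), and the further window of Cdkn2c (42.8%) was poorer. All of these matches are descriptions of the letters and were not tested for binding. In the GENCODE annotation of GRCm38 the genes themselves lie at chr4:109660876-109667189 (Cdkn2c, minus strand), chr9:21288410-21291407 (Cdkn2d, minus), chr10:127063534-127067920 (Cdk4, plus) and chr17:47505051-47599691 (Ccnd3, plus), with Cdkn1a at chr17:29090976-29100727 (plus) and Cdkn1b at chr6:134920401-134925513 (plus). The annotations place some starts differently, so that the printed window of Cdkn2c lies inside its GENCODE gene and that of Cdkn2d lies mostly inside. All 10 members are protein-coding, and the genes that overlap them, such as Tspan31 at Cdk4 and Bysl at Ccnd3, are on the other strand.

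In all, 6641 female cells (3009 old, 3632 young) and 1227 male cells (526 old, 701 young) were assigned to mice, and no cell barcode was shared by the pools. Depth was much greater in females, with 80113391 unique molecular identifiers (UMIs) against 6795341 in males, and cells of old mice were deeper than those of young mice in both sexes. The median UMIs per cell ranged over mice from 9699.5 to 13033 in old and 7978 to 8990 in young females, and from 4489.5 to 8844 in old and 3805.5 to 4455.5 in young males. All 6 markers of Ly6C-high monocytes were detected in every group. Of the 5 T or NK markers, 4 were found in females and 3 in either age of males, with a summed level of at most 93.1 counts per 1000000 UMIs (CPM) in a female and 129 CPM in a male mouse. Neutrophil transcripts were uneven among males: the summed level of 6 neutrophil markers, which was 224 to 2028 CPM in female mice, was 3990 to 12719 CPM in 6 males, highest in old male 4, a mouse with 49 cells, and 292 to 609 CPM in old male 1 and young males 1, 4 and 5. Basophil markers were uneven among males too. Their summed level was 23.0 to 491 CPM in young and 30.5 to 574 CPM in old males, and at most 3.32 CPM in a female mouse. Levels below are TMM-scaled CPM of UMIs summed over the cells of a mouse (for marker lists and for bins of cells, CPM without that scaling), errors are SD over mice, and fold changes are on the log2 scale with approximate 95% intervals derived from the test statistic. Because counts were taken at the 3′ end of transcripts, levels are compared between groups for a gene and not between genes. In such sums, fewer cells that express a gene and less RNA per cell cannot be told apart.

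The first question was how the members differ between cells inside and outside the cycle. A cell was placed inside if it had at least 1 UMI of Mki67 or Top2a, 2 genes transcribed from S phase to mitosis. Cells in G1 phase can lack both and then count as outside, so inside, outside and cycling below name only this rule. By this rule 3781 female cells were inside (median 14906 UMIs) and 2860 outside (median 7513.5 UMIs), against 414 (7879 UMIs) and 813 (3901 UMIs) in males. A single UMI can be background in droplets, so barcodes with markers of other types were looked at. Of 42 female barcodes with at least 3 UMIs of erythroid markers, 47.6% (95% exact Clopper-Pearson interval 32.0 to 63.6%, median 6755 UMIs) also had one. The share was 56.9% of all female cells (median 9587 UMIs). In males it was 1 of 16 basophil-marker barcodes (6.25%, interval 0.158 to 30.2%, median 1549 UMIs) against 33.7% of all cells (median 4540 UMIs). Deeper barcodes with markers of other types had one more often, namely 91.0% of the 345 carrying T or NK markers (a median of 23441 UMIs) and 82.0% of the 161 carrying B cell markers (a median of 20189) in females, and 74.2% of the 31 carrying T or NK markers (a median of 11958) in males. In both pools the share over all cells lay between the shares of these barcodes. These barcodes differed in depth and were not shown to be other cell types. Whether they were themselves dividing was not tested either, so the background of the rule stayed unknown. The comparison was repeated with at least 3 UMIs against 0. The 2 classes also differed in summed marker levels. In female cells, 6 progenitor markers (among them Mpo and Elane) summed to between 5927 and 9883 CPM inside and between 436 and 1599 CPM outside. The Ly6C-high monocyte markers summed to 18240 to 23389 CPM inside and 39412 to 50879 CPM outside. Abundant genes can carry such sums, and the markers were not read singly. The part of maturity, monocyte subset or cell type in the differences that follow was not tested.

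Members that drive G1 and members that restrain it were both higher inside the cycle. In females, 8 members passed the filter on low counts, and 6 were higher inside (Cdkn2c, Cdk4, Cdk6, Ccnd2, Cdkn2d and Ccnd3), 1 was lower (Cdkn1b) and Cdkn1a did not pass the test. Across all 9350 genes tested in females, 35.5% were higher and 39.7% lower, so a difference in either direction was common. In males 5 of 7 members tested were higher and none was lower, where 24.4% of 3758 genes were higher and 26.2% lower. The male comparison used the 9 mice with at least 10 cells in both classes (all but old male 4). The filter was applied over the columns of both classes together, so a member rare outside could pass it through its inside columns. Outside the cycle, Cdkn2c had 89 and Cdk6 had 86 UMIs in males, and Ccnd2 had 96 in females. The shares over all genes rest on the same filter. Overlap of the classes is given below for members only, and how many of all genes kept the classes apart was not counted. The median log2 fold change was 0.92 over the 8 members in females, where it was -0.04 over all genes.

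Among the D-type cyclins, Ccnd3 was found in both classes at much the same level. Outside the cycle, the lowest, median and highest female mouse had 362, 444 and 459.5 CPM, and inside they had 435, 486 and 586 CPM. The ranges overlapped, but the level was higher inside in 10 of 10 mice (log2 0.21, 0.15 to 0.27; adjusted p = 1.19e-07). Males showed 218 ± 15.3 CPM outside and 264 ± 40.8 CPM inside (SD, n = 9), higher inside in 8 of 9 mice (log2 0.24, 0.06 to 0.41; adjusted p = 0.0212). This small male difference was lost when cells were thinned to equal depth (log2 0.00, adjusted p = 0.994), with DESeq2 (adjusted p = 0.0783) and with HTODemux singlets (adjusted p = 0.0743). Ccnd2, the cyclin of many early haematopoietic cells, was rare (600 UMIs in the female pool). Its level was 4.02 ± 2.14 CPM outside and 9.15 ± 2.53 CPM inside (SD, n = 10), and it was higher inside in 10 of 10 mice, with overlapping ranges (log2 0.97, 0.61 to 1.34; adjusted p = 1.02e-05). Outside the cycle, Ccnd2 had 0 to 28 UMIs in a mouse, so it could pass the filter through its inside columns. In young female 4 its levels were close (5.42 CPM outside, 5.71 CPM inside). Ccnd1 gave only 234 female and 29 male UMIs and did not pass the filter in this comparison.

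The catalytic partners were both higher inside the cycle. Cdk4 had a lowest, median and highest value of 64.6, 86.3 and 109 CPM in female cells outside and 220.1, 240.4 and 282 CPM inside, without overlap (log2 1.48, 1.37 to 1.58; adjusted p = 3.96e-23), a 2.78-fold difference. The male values of 74.8, 108 and 156 CPM outside and 202, 249.9 and 263 CPM inside did not overlap either (log2 1.13, 0.93 to 1.33; adjusted p = 1.27e-11). For Cdk6, which can replace Cdk4 in blood cells, female values were 15.3, 19.8 and 22.6 CPM outside and 35.1, 42.6 and 67.5 CPM inside, again without overlap (log2 1.13, 0.98 to 1.29; adjusted p = 1.93e-15). In males Cdk6 was higher inside in 8 of 9 mice (log2 0.97, 0.49 to 1.45; adjusted p = 0.000784). It had only 1 to 17 UMIs outside in a male mouse, so it could pass the filter there through its inside columns. At an equal depth of 2000 UMIs per cell, the female Cdk4 difference was 0.79 and remained past the threshold, while that of Cdk6 was 0.33 (adjusted p = 0.069).

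The INK4 inhibitor Cdkn2c (p18) had the largest class difference of the members tested, in both sexes. In females the lowest, median and highest mouse had 16.2, 19.6 and 23.3 CPM outside the cycle and 84.8, 111 and 117 CPM inside. No outside value came near an inside one, and the means were 19.9 ± 2.07 and 108 ± 10.2 CPM (SD, n = 10), a 5.35-fold difference (log2 2.42, 2.31 to 2.53; adjusted p = 7.65e-29). Males gave 28.02 ± 12.4 CPM outside and 138 ± 24.3 CPM inside (SD, n = 9), a 4.75-fold difference (log2 2.25, 1.89 to 2.61; adjusted p = 1.29e-12). The male outside values rest on 2 to 16 UMIs of Cdkn2c in a mouse, so it could pass the filter through its inside columns. Cdkn2d (p19), the other INK4 inhibitor with many UMIs, was also higher inside, at 222, 233 and 328 CPM against 102, 128 and 208 CPM outside in females (lowest, median and highest mouse; log2 0.86, 0.78 to 0.94; adjusted p = 3.69e-19). The male difference for Cdkn2d was of the same size (log2 0.87, 0.68 to 1.06; adjusted p = 1.16e-09), and classes did not overlap in either sex. At equal depth the female differences were 2.14 for Cdkn2c and 0.97 for Cdkn2d, both past the threshold. Cdkn2a, whose p16 and ARF products share their 3′ exons and cannot be told apart here, gave 9 UMIs in the female pool and 0 in the male pool. A count of 0 in males allows up to 0.441 CPM.

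The CIP/KIP inhibitors did not follow the INK4 genes. Cdkn1b (p27), which accumulates in cells leaving the cycle, had 45.1, 52.3 and 76.2 CPM outside and 35.9, 45.3 and 50.9 CPM inside (lowest, median and highest female mouse). Ranges overlapped, and the level was lower inside in 9 of 10 mice (log2 -0.30, -0.42 to -0.18; adjusted p = 2.57e-05). With each cell thinned to 2000 UMIs, which also assigns the classes anew and weights cells equally, the difference was 0.25 in the other direction and did not pass (adjusted p = 0.0653). In males the value was -0.08 (-0.48 to 0.33; adjusted p = 0.771). Cdkn1a (p21) had 35.5 ± 12.5 CPM outside and 37.5 ± 4.90 CPM inside in females (SD, n = 10; log2 0.17, -0.03 to 0.36; adjusted p = 0.11) and 67.0 ± 20.9 and 56.6 ± 16.2 CPM in males (SD, n = 9; log2 -0.18, -0.52 to 0.16; adjusted p = 0.37). It became higher inside in females at 2000 UMIs per cell (log2 0.50, adjusted p = 0.00435), with at least 3 UMIs against 0 (0.23, adjusted p = 0.0439), with both class genes against neither (0.27, adjusted p = 0.0228) and without the filter on low counts (0.24, adjusted p = 0.000934).

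Splitting the female cells further, by 0, 1, 2 to 3, 4 to 9 and 10 or more UMIs of Mki67 and Top2a together, showed that the members did not rise in step. These bins held 2860, 842, 520, 556 and 1863 cells, and the median depth rose over them from 7513.5 to 18237 UMIs, so the order of the bins is in part an order of depth. Cdk4 had mean levels of 85.0, 119, 218, 295 and 264 CPM and Cdk6 of 19.4, 24.6, 46.4, 56.3 and 44.2 CPM, both highest in the bin of 4 to 9. Cdkn2c had 19.7, 24.0, 30.4, 55.1 and 152 CPM and was highest in the last bin. Cdkn2d was flat over the first 4 bins (139, 128, 129 and 121 CPM) and stood at 335 ± 48.5 CPM in the last (SD, n = 10), where the lowest mouse had 283 CPM against at most 205 CPM in any mouse of the other bins. Thus the class difference of Cdkn2d lay in the cells richest in Mki67 and Top2a. Cdkn1b had 53.6, 47.3, 33.0, 33.1 and 49.0 CPM, lowest in the middle bins, and Cdkn1a had 35.0, 29.1, 32.5, 46.3 and 38.3 CPM. Ccnd3 moved little, from 424 to 514 CPM, and Ccnd2 went from 3.99 CPM in the first bin to 12.3 in the fourth and 8.29 CPM in the last. Ccnd1 ranged from 2.62 to 5.33 CPM over the bins, with SDs of 1.51 to 3.55. All 9 Cdkn2a UMIs were in the last bin. No test was run on the bins.

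**Figure D1:**
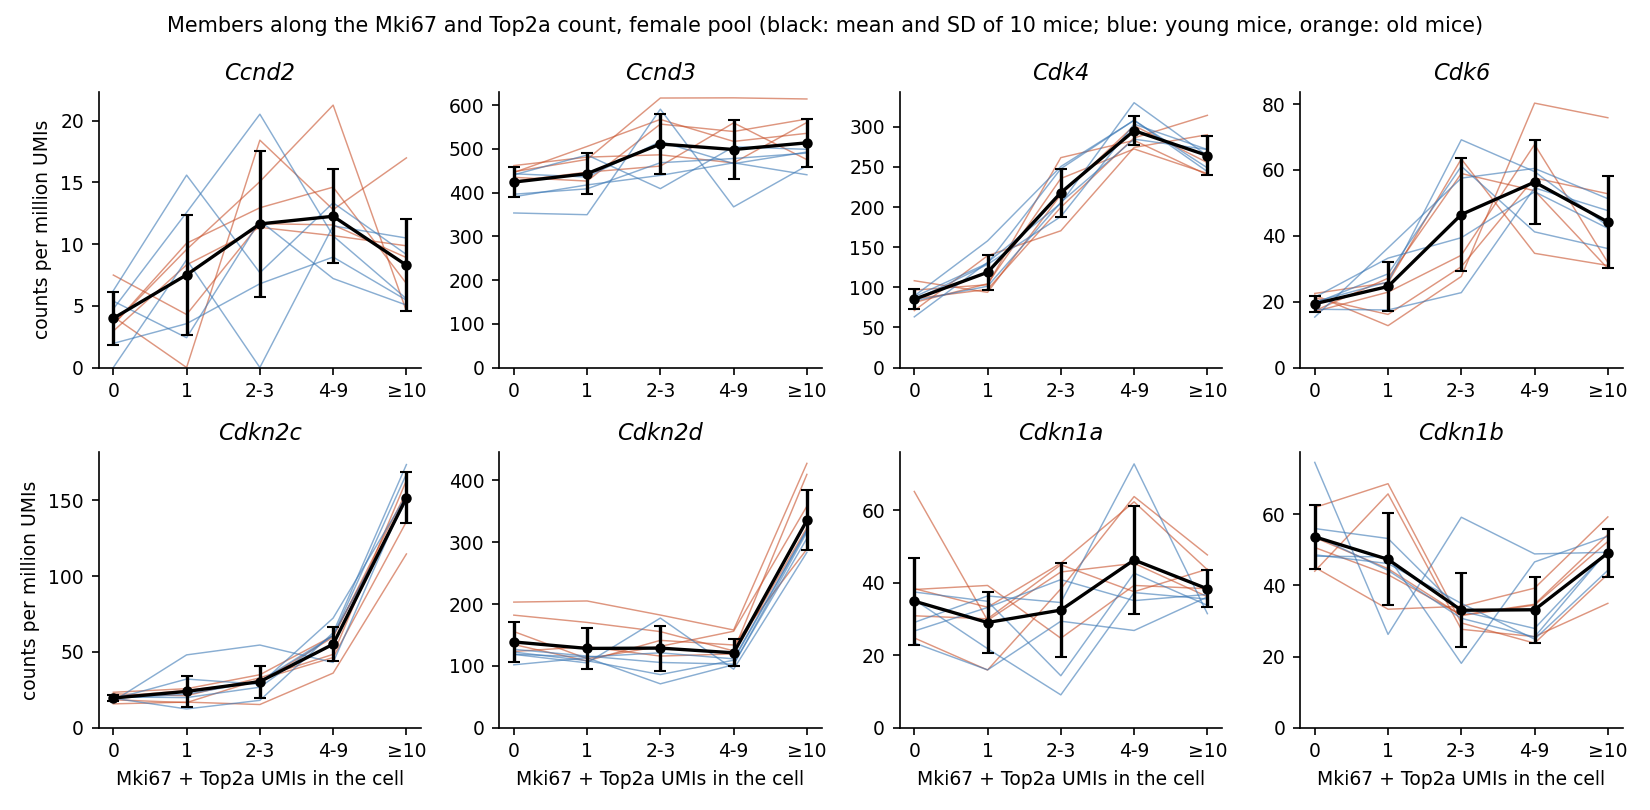
Mean level of 8 members (y axis, CPM) in female cells binned by their UMIs of Mki67 and Top2a together (x axis). Black points and bars are the mean and SD of 10 mice, blue lines young mice and orange lines old mice. Cdkn2c and Cdkn2d are highest in the bin of 10 or more UMIs (152 and 335 CPM), while Cdk4 and Cdk6 are highest in the bin of 4 to 9 (295 and 56.3 CPM).

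The second question was whether aging changed these genes. In females, Cdkn2d, Cdkn1a and Ccnd3 were higher in old mice, by 1.15- to 1.28-fold, and the other 6 members tested (Cdkn1b, Cdkn2c, Ccnd1, Ccnd2, Cdk4 and Cdk6) did not pass the test. The 3 called members compare with 3.42% of the 10074 genes tested called in either direction and 2.03% called higher. Before adjustment, 1667 genes had a p under 0.05 with edgeR. Overlap of the ages is given below for members only, and how many of all genes kept the ages apart was not counted. The median log2 fold change was 0.20 over the 9 members and 0.00 over all genes.

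Cdkn2d gave the largest of these differences. Old females 1 to 5 had 222, 256, 278, 293 and 213 CPM, and young females 1 to 5 had 198, 201, 194, 198 and 194 CPM. All old values lay above all young ones, and the young mice differed little from each other (253 ± 34.6 against 197 ± 3.41 CPM; SD, n = 5). The log2 fold change was 0.36 ± 0.07 (SE; 0.20 to 0.52; adjusted p = 0.0129). It was past the threshold without each of the 10 mice in turn (0.30 to 0.42) and at 2000 UMIs per cell (0.38, adjusted p = 0.0095). With female cells drawn down to the number of male cells the value was unchanged at 0.36 but no longer passed (adjusted p = 0.252).

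Cdkn1a, the p53 target, stood at 44.1, 39.5, 37.4, 38.0 and 44.6 CPM in the old and 34.5, 28.9, 32.9, 33.6 and 35.6 CPM in the young females. The ages did not overlap, although the highest young and lowest old values were close (log2 0.28 ± 0.07, SE; 0.13 to 0.43; adjusted p = 0.0376). The call was lost without old female 1, 2 or 5 or young female 1, 2, 3 or 4 (adjusted p 0.0568 to 0.0933), at 2000 UMIs per cell (0.20, adjusted p = 0.645), and among cells without a UMI of MHC class II genes (0.20, adjusted p = 0.179). Ccnd3 was at 526, 513, 508, 550.4 and 479 CPM in old and 426, 451, 426, 470.2 and 474 CPM in young females, again with no overlap (log2 0.20 ± 0.04, SE; 0.10 to 0.29; adjusted p = 0.023). It was lost without young female 1, 2 or 3 (adjusted p 0.0608 to 0.0773) and at 2000 UMIs per cell (0.12, adjusted p = 0.496). Both also failed when cells were assigned by a leading hashtag of at least 80% (Ccnd3 0.17, adjusted p = 0.0532; Cdkn1a 0.19, adjusted p = 0.114) and with fewer female cells (Ccnd3 0.18, adjusted p = 0.404; Cdkn1a 0.21, adjusted p = 0.879). Beside these differences, cells of old females were deeper (above), and the share of cells with an MHC class II UMI was 53.8% ± 20.9 in old and 33.4% ± 1.22 in young females (SD, n = 5). The part of either was not tested beyond these repeats.

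The remaining members gave intervals around 0 in females. Cdk4 had 208 ± 21.4 CPM in old and 199 ± 4.16 CPM in young mice (SD, n = 5; log2 0.06, -0.07 to 0.19), and Cdkn2c had 83.3 ± 9.85 and 85.7 ± 3.86 CPM (log2 -0.04, -0.19 to 0.11). As folds, these intervals run from 0.955 to 1.14 for Cdk4 and from 0.877 to 1.08 for Cdkn2c. For Cdkn1b the log2 value was -0.03 (-0.19 to 0.14) and for Cdk6 0.05 (-0.25 to 0.35), and old female 5 was the lowest old mouse for the former (38.2 CPM) and the highest for the latter (57.5 CPM). Ccnd2 (0.34, -0.07 to 0.75; adjusted p = 0.412) and Ccnd1 (0.23, -0.30 to 0.77; adjusted p = 0.724) were too rare for a narrow interval. Of the 9 female UMIs of Cdkn2a, 7 came from old and 2 from young mice, in 5 mice in all, and no test was made on so few.

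**Figure D2:**
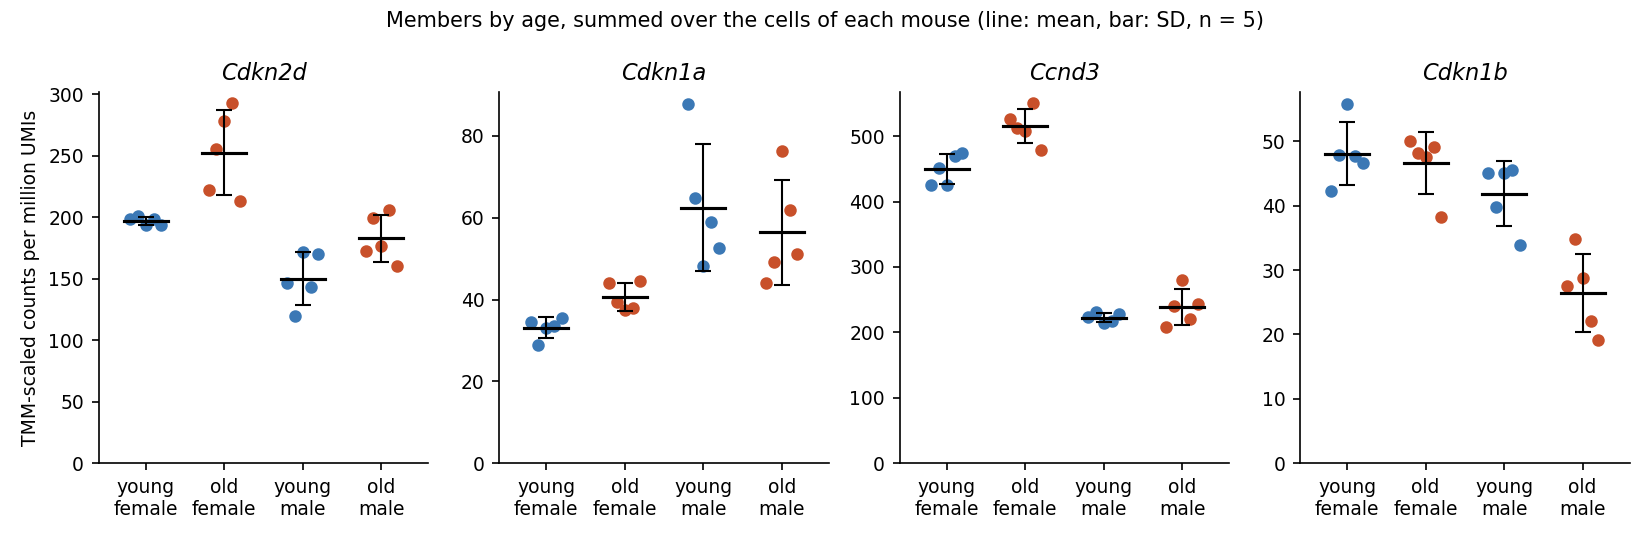
Level of 4 members (y axis, TMM-scaled CPM) in each mouse, by age and sex; each point is 1 mouse, lines are means and bars SD (n = 5). Old female points lie above all young female points for Cdkn2d, Cdkn1a and Ccnd3, and 4 of 5 old males lie below all young males for Cdkn1b. The number of all genes that kept the ages apart was not counted. Levels of females and males come from different libraries and are not compared.

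In males no member passed the test, and neither did any of the 5656 genes (0% called). Before adjustment 618 genes had a p under 0.05 with edgeR, while 22 genes, none of them a member, were called with DESeq2. Ccnd1, Ccnd2 and Cdkn2a were too rare to be tested. Cdkn2d had 172, 199.5, 177, 206 and 160.1 CPM in old and 146, 119, 172, 143 and 169.9 CPM in young males. Of the old mice, 4 of 5 lay above the highest young mouse (log2 0.29, 0.06 to 0.52; adjusted p = 0.324). Cdkn1b showed the largest male difference of the members, with 27.5, 34.8, 28.8, 22.1 and 19.2 CPM in old and 45.0, 39.8, 45.1, 45.5 and 34.0 CPM in young mice. Here 4 of 5 old mice lay below the lowest young one (log2 -0.61, -0.98 to -0.24; adjusted p = 0.231), on 88 UMIs in old and 144 in young mice. Among male cells without an MHC class II UMI, where 13 of 5015 genes and 1 of 7 members passed, the Cdkn1b difference was -1.03 (adjusted p = 0.0399). Beside it, the summed Ly6C-high monocyte markers were lower in every old male (15261 to 31892 CPM) than in any young male (32776 to 35296 CPM), and the part of this in the Cdkn1b values was not tested. The other 5 members tested had intervals that included 0, with log2 values from -0.18 (Cdkn1a) to 0.18 (Cdkn2c). Old male 4 was the highest mouse for Cdkn2c (128 CPM) and Cdk4 (252 CPM), and without it these differences were 0.03 and -0.08.

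The age difference itself was compared between the pools. No member passed the interaction test, in which 0.0225% of 8893 genes did. The female minus male difference in log2 fold change was 0.59 for Cdkn1b (0.18 to 0.99; adjusted p = 0.735) and 0.49 for Cdkn1a (0.09 to 0.89; adjusted p = 0.75). For Cdkn2d it was 0.08 (-0.21 to 0.36) and for Ccnd3 0.11 (-0.09 to 0.30), so that the calls of these genes in females alone are not shown to be a difference between the sexes.

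**Figure D3:**
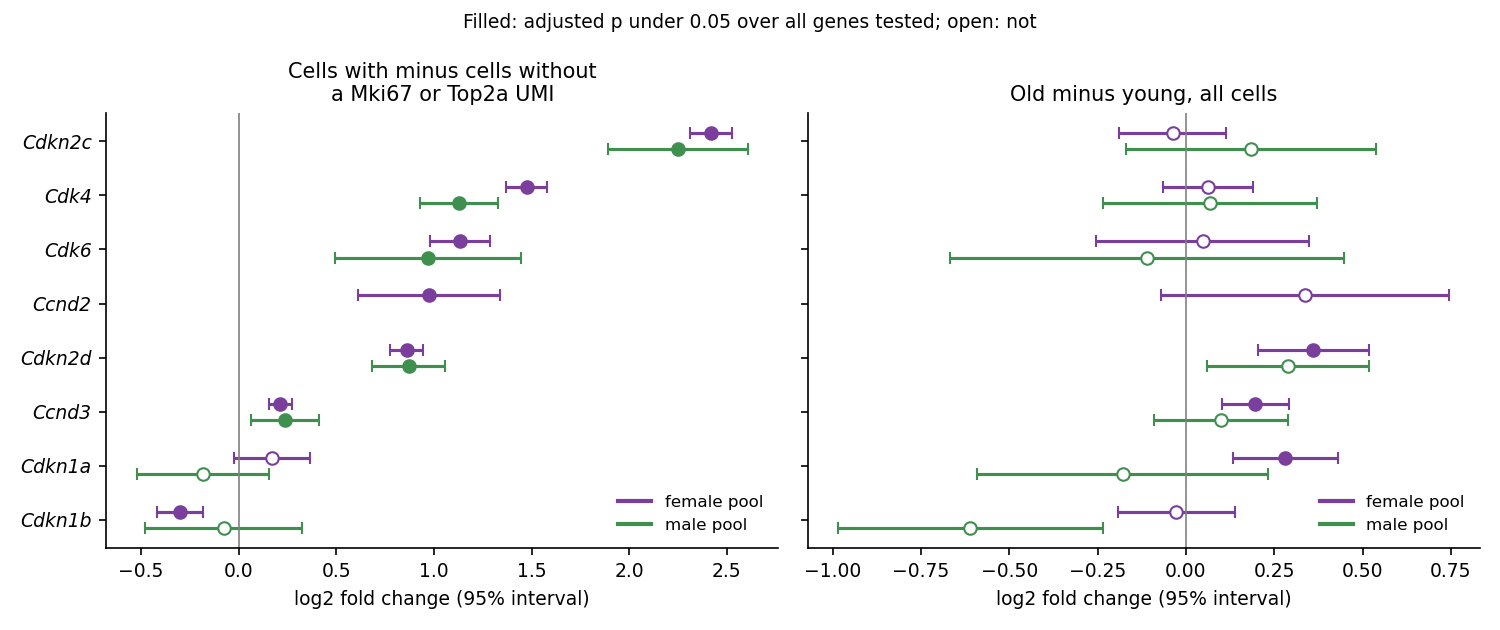
Log2 fold changes (x axis) of 8 members with 95% intervals, for cells with minus cells without a Mki67 or Top2a UMI (left) and for old minus young mice (right), in the female (purple) and male (green) pools. Filled points passed the test over all genes; Ccnd2 was not tested in males. The class differences of Cdkn2c reach 2.42 and 2.25, while no called age difference exceeds 0.36.

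As Cdkn2d differed between the classes, the ages were also compared within each class. The share of cells with a Mki67 or Top2a UMI was 60.1% ± 4.37 in old and 56.0% ± 1.37 in young females (SD, n = 5; two-sided exact permutation p = 0.103). In males it was 45.6% ± 20.5 in old and 28.8% ± 1.99 in young mice (SD, n = 5; exact permutation p = 0.00794, the smallest this design allows), with old male 4 at 81.6% on 49 cells. The male difference of 16.8 percentage points was 7.77 without that mouse and up to 20.2 without another (exact permutation p = 0.0159 in each case, the smallest then possible). At 2000 UMIs per cell the male shares were 27.8% and 18.1% (exact permutation p = 0.143). The female share at equal depth was 39.9% in old and 36.0% in young mice (exact permutation p = 0.159). With at least 3 UMIs required, the shares were 42.9% in old and 38.1% in young females (exact permutation p = 0.103). In males they were 26.6% and 15.6% (exact permutation p = 0.0238). The inside class holds cells of widely differing counts, so its make-up can still differ with age, which was not tested.

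Within the female cells outside the cycle, Cdkn2d was again higher in old mice, with 129, 155, 184, 208 and 138 CPM in old and 118, 122, 121, 128 and 102 CPM in young mice. Old and young did not overlap (log2 0.50 ± 0.10, SE; 0.28 to 0.72; adjusted p = 0.00563), and the difference passed without each of the 10 mice in turn. It was the only one of 7 members tested to pass there, where 2.84% of 8128 genes were called higher. Inside the cycle, Cdkn2d had 252, 286, 314, 328 and 235 CPM in old and 228, 230.1, 222, 226 and 231 CPM in young mice, and every old value was above every young one (log2 0.31 ± 0.08, SE; 0.15 to 0.47; adjusted p = 0.0388). Ccnd3 was the other member called there (log2 0.21, 0.10 to 0.31; adjusted p = 0.0306; 537 ± 35.0 against 463 ± 20.01 CPM; SD, n = 5), among 9 members tested and 1.47% of 9685 genes called higher. Each of these inside calls was lost in 8 of the 10 repeats without 1 mouse (adjusted p up to 0.0991 for Cdkn2d, held without old female 1 or 5, and 0.111 for Ccnd3, held without old female 3 or 5). At 2000 UMIs per cell, neither class gave a called member, and the Cdkn2d differences were 0.37 outside (adjusted p = 0.111) and 0.34 inside (adjusted p = 0.16). The difference of the Cdkn2d age effect between the classes was -0.17 (-0.32 to -0.01; adjusted p = 0.694), and no member passed that test (0.163% of 9792 genes did). For Cdkn1a, the age difference was 0.38 outside (adjusted p = 0.352) and 0.24 inside (adjusted p = 0.129). No member passed in male cells outside (7 tested without old male 4, which had 9 such cells; 0.396% of 4044 genes called) or inside the cycle (6 tested, 0.0281% of 3556 genes called), or in the male test of age by class (7 tested, again without old male 4; 0% of 4636 genes; 225 genes had an unadjusted p under 0.05 with edgeR).

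**Figure D4:**
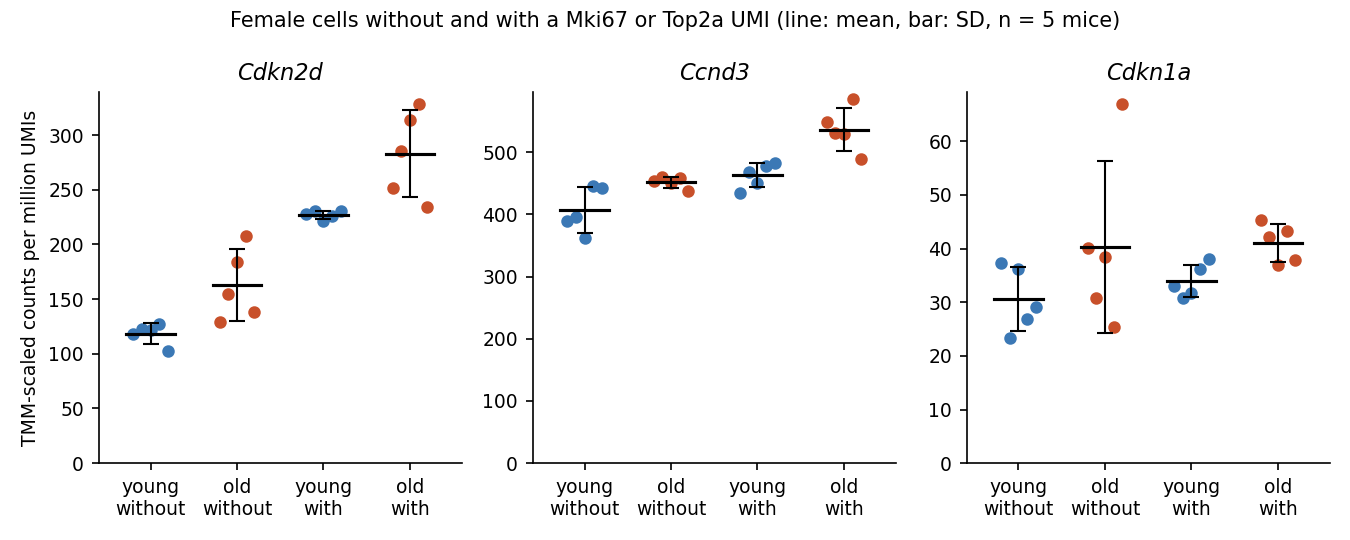
Levels of Cdkn2d, Ccnd3 and Cdkn1a (y axis, TMM-scaled CPM) in female cells without and with a Mki67 or Top2a UMI, by age; each point is 1 mouse, lines are means and bars SD (n = 5). For Cdkn2d the old points lie above the young points in both kinds of cell, from 129 against at most 128 CPM outside to 235 against at most 231 CPM inside. The number of all genes that kept the ages apart was not counted.

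Cells with at least 1 UMI of an MHC class II gene were set against those with none, among cells outside the cycle, since the study describes MHCII-expressing monocytes. How far such a UMI marks expression stayed unknown. In females 40.4% of all cells had one (median 9587 UMIs). So did 53.04% of the 345 barcodes carrying T or NK markers (a median of 23441) and 45.2% of the 42 carrying erythroid markers (6755). In males it was 18.7% of all cells (4540), 16.1% of 31 barcodes carrying T or NK markers (11958) and 6.25% of 16 carrying basophil markers (1549). The barcodes carrying T or NK markers were deeper than all cells in both pools and were not shown to be T or NK cells. Old female 1 had only 14 cells outside the cycle without an MHC class II UMI. None of the 7 members tested in females passed (4.04% of 6851 genes did), and none of the 3 tested in males, without old male 4 (12.2% of 1845 genes did). The member with the lowest adjusted p in females was Cdkn2c, with 23.7 ± 5.83 CPM with and 16.5 ± 3.81 CPM without an MHC class II UMI (SD, n = 10; log2 0.39, 0.10 to 0.68; adjusted p = 0.14). Cdkn2d had 135 ± 36.8 CPM with and 142 ± 36.3 CPM without (log2 -0.11, -0.23 to 0.01). At 2000 UMIs per cell, Cdk4 (-0.46, adjusted p = 0.0322) and Ccnd3 (-0.21, adjusted p = 0.0402) passed as lower in the female cells with such a UMI. They were 2 of 4 members tested, where 420 of 3652 genes were called in either direction. In males Ccnd3 passed as lower only without the filter on low counts (-0.58, adjusted p = 0.0496), where 454 of 12332 genes were called.

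The partners of the members were read from a list of 39 genes that act around the G1/S transition. Inside the cycle in females, 21 of the 34 tested were higher and 7 lower, where 35.5% of all genes were higher and 39.7% lower. The largest differences of the list were those of Ccna2 (log2 4.60), Ccne2 (3.78) and Ccne1 (3.56), which encode the cyclins that activate CDK2, followed by the repressor E2f7 (3.56). Cks1b (3.14) and Skp2 (2.12), whose products mark the p27 protein for degradation, were higher too. Cdkn1b RNA was lower in the same cells before thinning, and any link between them was not tested. The pocket protein genes went apart, with Rbl1 higher (1.56) and Rbl2 lower (-0.31). Genes lower inside were Btg2 (-1.39), a p53 target that slows the cycle, Csf1r (-1.17), the M-CSF receptor, Bbc3 (-0.86), Sesn1 (-0.38), Ccng1 (-0.29) and E2f2 (-0.25). In males 8 of 16 tested were higher (24.4% of all genes were), led by Ccna2 (3.39). Another 2, Btg2 (-0.96) and Csf1r (-1.34), were lower (26.2% of all genes were). By age, 1 of 36 list genes was called in females, no larger a share than the 3.42% of all genes. It was Btg2, lower in old mice (-0.51, adjusted p = 0.00341). Outside the cycle Btg2 was the 1 of 26 called (-0.41, adjusted p = 0.0011), where 4.36% of all genes were. Inside the cycle it was the 1 of 35 called (-0.49, adjusted p = 0.00674), where 2.13% of all genes were. None of 23 list genes passed by age in males, where 0% of all genes did.

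Over the 20 female columns (10 mice, each with its cells outside and inside the cycle), the genes with the most similar pattern of log2 CPM were Lmnb1, Smc4 and H2afx for Cdkn2c (Pearson r from 0.995 to 0.997) and Rfc4, Fen1 and G3bp1 for Cdk4 (r from 0.991 to 0.992). Nop10, Lta4h and Cldn15 were closest to Cdk6 (r from 0.964 to 0.972), and Azin1, Ncam1 and 4930579G24Rik to Cdkn2d (0.918 to 0.92). For Ccnd2 they were Psmg1, Zc3h15 and Xpo4 (0.888 to 0.913). Values were lower for Cdkn1b (Tfeb, Hltf and Taf6l, 0.835 to 0.867) and Ccnd3 (Fam110a, Mbd2 and Sgcb, 0.835 to 0.861), and lowest for Cdkn1a (Cfl1, Usp2 and Itfg1, 0.707 to 0.755). These columns share mice, a library and the class difference itself, and the r values are descriptions.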

How the data were processed

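Ly6C-high monocytes of 20 mice were measured as 2 pooled libraries, 1 per sex. The values deposited are UMI counts per gene and barcode, whole numbers without normalization. The authors made them, per their methods, with STAR 2.5.1 on mm10 and Cell Ranger 4.0.0, while the file headers name Cell Ranger 3.1.0 (female) and 7.0.0 (male). Male barcodes at or over 5% mitochondrial UMIs were absent as deposited, and 534 female ones were removed together with barcodes of at most 200 genes. The 6 surface antibodies counted in the female pool were not used.

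Female cells were assigned with HTODemux (Seurat 5.3.0), keeping 7013 singlets of 10433 barcodes before filtering and removing 2478 doublets. Male cells were assigned by the leading hashtag, which held a median of 95.1% of hashtag UMIs in the 401 barcodes HTODemux calls doublets, so male doublets were not removed. Counts were summed per mouse, or per mouse and class with mouse as a block (at least 10 cells in each), and compared by edgeR 4.0.16 (R 4.3.3; quasi-likelihood, TMM, filterByExpr), two-sided, with Benjamini-Hochberg adjustment over all genes at 0.05. The code was tested on simulated data. The p-values of age and of age by sex measure the spread between mice. Those of comparisons with mouse as a block measure the spread over mice of the difference between the classes. Intervals on shares cover counting error only. The SE of a fold change was its absolute log2 value divided by the square root of the quasi-likelihood F statistic, and intervals were built from it. They are approximate and can fail near 0. Without young male 5, Cdk6 by age in males had a log2 value of 8.4e-05 with an SE of 5.38. Shares used exact permutation tests over mice in scipy 1.17.1. The alternatives were DESeq2 1.42.0, no filter, other cell assignments, thinning of each cell to 2000 UMIs with classes assigned anew, so that every cell counts equally, other class rules, no mouse block, cells without an MHC class II UMI, fewer female cells, and leaving out each mouse. The comparisons of cells inside with cells outside the cycle, and of cells with and without an MHC class II UMI, were not repeated without a mouse. The text names all 10 members, G1/S genes only if called in an age or class comparison (not all of those) and, for each member tested in the female cycling comparison, the 3 genes of highest r. The members and lists were chosen with earlier results of these data known.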

Additional observations from a re-analysis of the deposited data

Results flagged for a closer look

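In 8 of 96 groups of 4 or 5 mice, 1 mouse stood far from the rest by Dixon's criterion, which chance meets in about 1 in 20 groups. Old female 5 had 38.2 CPM of Cdkn1b over all cells, where the other old females had 47.6 to 50.01 CPM. Ccnd2 was at 7.46 CPM outside the cycle in old female 2 (3.08 to 4.23 CPM in the others) and at 14.8 CPM inside the cycle in old female 5 (8.51 to 9.98 CPM). Cdk4 outside the cycle was at 64.6 CPM in young female 3, below the other young females (83.2 to 88.9 CPM), and inside the cycle at 205 CPM in young male 2, below the other young males (249.9 to 263 CPM). Old male 3 had 62.2 CPM of Cdk6 outside the cycle against 7.06 to 15.3 CPM in the other 3 old males of that comparison. The share of cells with a Mki67 or Top2a UMI was 81.6% in old male 4, whose 49 cells also held the highest neutrophil marker level, against 31.9 to 42.4% in the other old males, and 25.4% in young male 5 against 29.1 to 30.5%.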

How the results depend on the processing

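Of 492 values of single members under alternatives that kept all mice, 466 stayed on their side of the threshold, 17 lost a call and 8 gained one. The remaining 1 reversed, which was Cdkn1b in the female cycling comparison (0.25 at 2000 UMIs per cell). Many of the 492 values were not called in the main comparison and so could not lose a call. Without 1 mouse, 724 values stayed on their side of the threshold and 26 lost a call. Most of the 724 were not called in the main comparison. In females, the call by age held in 10 of 10 repeats for Cdkn2d, 7 for Ccnd3 and 3 for Cdkn1a. Outside the cycle the Cdkn2d call held in 10 of 10 repeats, and inside it those of Cdkn2d and Ccnd3 each held in 2. Among all the values that stayed on their side, 108 that were called under neither setting changed sign. The alternative assignment by HTODemux is the same as the main one for females. Where a cause is not evident from fewer cells, UMIs or genes, it was not tested.

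Thinning to 2000 UMIs gave 161 of 7471 genes and 1 of 7 tested members called by age in females, and 0 genes for age by sex. For the cycling classes it gave 2908 of the 5374 genes tested in females and 323 of the 936 tested in males. Only 2 members could be tested in males there, and 1 was called. By age it gave 161 of 6231 genes and 0 of 7 members in female cells outside the cycle, and 52 of 4734 genes and 0 of 7 members inside. Male cells outside gave 0 genes by age. Age by class gave 3 genes in females and 5 in males, and the female MHC class II classes gave 420 of 3652 genes and 2 of 4 tested members. The male share of cycling cells then differed by 9.68 percentage points. DESeq2 called 22 genes by age in males, 4 for age by sex, 32 and 5 by age in male cells outside and inside the cycle, 4 for age by class in females and 155 for the female MHC class II classes. Without a filter on low counts, the numbers were 95 by age in males, 5 for age by sex, and 113 and 57 in male cells outside and inside. For age by class they were 60 in females and 8 in males. The MHC class II classes then gave 1 of 9 tested members in each sex, with 454 of 12332 genes in males.

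With HTODemux singlets, 1 gene was called for age by sex, and 1252 of 2557 genes and 3 of 5 tested members for the male cycling classes. The same setting called 0 genes by age in male cells inside the cycle and 94 for the male MHC class II classes. With a leading hashtag of at least 80%, 1 of 9 tested members was called by age in females, 0 of 9 in female cells inside the cycle and 7 genes in male cells inside. Cells without an MHC class II UMI gave 13 of 5015 genes and 1 of 7 tested members by age in males. The smaller number of female cells gave 56 of 7874 genes and 0 of 7 tested members by age. Leaving out each mouse gave 194 to 522 genes and 1 to 3 members by age in females, 0 to 39 genes by age in males, 1 to 4 for age by sex, 112 to 271 genes and 0 to 2 members in female cells inside the cycle, 9 to 105 and 0 to 17 genes in male cells outside and inside, 4 to 39 and 0 to 8 for age by class in females and males, and a difference of 2.90 to 5.56 percentage points in the female share of cycling cells (exact permutation p from 0.0317 to 0.206) and of 7.77 to 20.2 points in the male share.

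Members had 0 to 1511 male UMIs against 9 to 39030 female UMIs, and old mice had the deeper cells in either pool. Cdkn2a, and in males Ccnd1 and Ccnd2, had too few UMIs to be tested.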
